A study of Mus musculus with 9 samples.

Results

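The genes of the plasminogen activator system described here were chosen as a family: Plau, which encodes the urokinase-type activator (uPA), Plat, which encodes the tissue-type activator (tPA), Plaur, which encodes the urokinase receptor (uPAR), and Serpine2, which encodes the inhibitor protease nexin-1. Plau was picked because its log2 value rose far with forskolin and fell with AICAR in these same arrays, so its levels are a description and no test is given for them. Of the 4 genes, 3 were measured by a probe listed for that gene alone (Plau, Plat and Plaur, 1 probe each), among 19938 genes in all. Serpine2 was not analysed here.

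MA-10 is a steroid-producing mouse Leydig tumour line, so all samples derive from 1 cell line. Its cells were moved to serum-free medium for 1.5 h with the DMSO vehicle alone (3 arrays, control below), with 10 µM forskolin (3 arrays), or with 10 µM forskolin and 1 mM AICAR (3 arrays, AICAR below). The control titles speak of no treatment and their treatment field names DMSO. Forskolin activates adenylyl cyclase and raises cAMP, while AICAR is converted inside cells to an AMP mimic that activates the kinase AMPK. An arm with AICAR but no forskolin was not analysed here, and so the effect of AICAR is read on top of forskolin. The labels do not say whether replicates came from separate cultures, and a p-value measures only the spread between these samples.

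uPA and tPA are secreted serine proteases that cut plasminogen into plasmin, a broad protease that dissolves fibrin and degrades extracellular matrix. uPAR, anchored in the membrane by a lipid, holds uPA at the cell surface, and serpins trap the active proteases in a covalent complex. In the gonads, plasminogen activator activity is known to respond to gonadotropins and to cAMP, and it has been tied to tissue remodelling in the ovary and in the seminiferous tubule.

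Each value below is the log2 expression value of 1 probe set on 1 array, and a log2 difference of 1 is a doubling. The array medians lay between 7.14 and 7.19. All 8 measured Leydig markers, Star and Cyp11a1 among them, were above the array median on all 9 arrays, against 8 of 39 markers of Sertoli, germ, macrophage, endothelial, and peritubular or fibroblast cells (Sox9, Dhh, Gata1, Cd68, Cdh5, Egfl7, Col1a1 and Col3a1). Insl3 and Lhcgr, also on the Leydig list, were not analysed here. The endothelial marker Cdh5 (mean 11.96) was as bright as the brightest Leydig marker, Hsd3b6 (11.95). AICAR replicates 1 and 3 lay furthest from each other: when each gene's deviations from its group means were reduced to components, the leading one held 46.0% of the sum of squares, and on it they lay at −0.60 and 0.56. Leaving out AICAR replicate 1 moved the number of genes called with AICAR most among single arrays (3324 in place of 1017 against forskolin), so for the genes named below the values without it are given too.

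Plau, the urokinase gene, was the member with the widest differences between the groups. The arrays measure the RNA of many cells together, in which fewer expressing cells and less RNA per cell cannot be told apart. Its log2 values were 8.23, 8.36 and 8.17 in the control arrays, 10.01, 9.98 and 10.06 with forskolin, and 8.73, 8.59 and 8.73 with AICAR. Every forskolin array lay above every AICAR array, and every AICAR array above every control array. Lack of overlap is common in this table, at 14% of all genes for forskolin against control, 23.6% for AICAR against forskolin and 29.5% for AICAR against control. For Plau the lowest forskolin array was 1.24 above the highest AICAR array, and the lowest AICAR array was 0.23 above the highest control array.

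As group means, Plau stood at 8.25 ± 0.10 in control, 10.01 ± 0.04 with forskolin and 8.69 ± 0.08 with AICAR (SD, n = 3). Forskolin arrays were higher than control by 1.76 (SE 0.06), or 3.39-fold, the 5th highest difference of 19938 genes. AICAR arrays differed from forskolin by −1.33 (SE 0.06), or 2.51-fold lower, the 7th deepest of all genes. Against control, AICAR arrays were higher by 0.43 (SE 0.06), or 1.35-fold, which is 24.6% of the forskolin rise on the log2 scale and 14.7% of it on the linear scale. Since Plau was picked on the first 2 of these differences and the third is their sum, none of them is offered as a test.

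**Figure D1:**
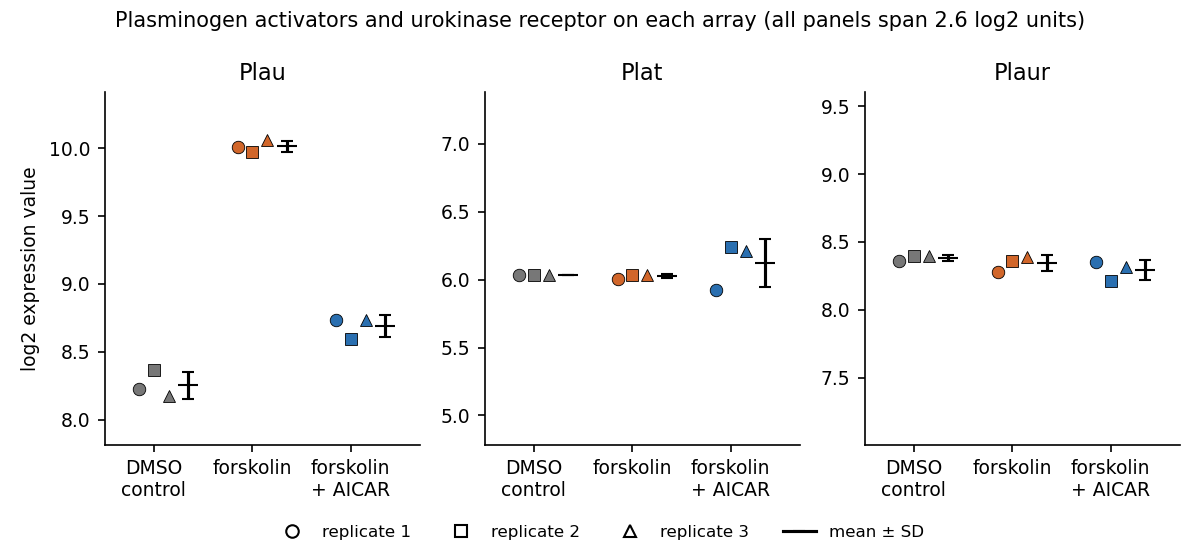
Log2 expression value (y axis) of Plau, Plat and Plaur on each of the 9 arrays, by group (x axis), with the group mean ± SD (n = 3) as a bar beside the points. Plau sits near 8.25 in control, 10.01 with forskolin and 8.69 with AICAR, whereas Plat and Plaur stay within a narrow band, with AICAR replicate 1 of Plat (5.92) below AICAR replicates 2 and 3 (6.24 and 6.21).

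Leaving out single arrays moved the Plau differences little, which is a description and no independent support, since Plau was picked on these arrays. With each of the 9 arrays left out in turn, forskolin minus control lay between 1.72 and 1.81, AICAR minus forskolin between −1.35 and −1.28, and AICAR minus control between 0.39 and 0.49. Without AICAR replicate 1 the AICAR arrays stood 0.41 (SE 0.07) above control. Plau varied within groups about as much as other genes: its within-group SD was 0.08, larger than that of 57.2% of genes.

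Plat, the gene of the second activator, tPA, did not follow Plau. Its log2 value was 6.04 on all 3 control arrays, 6.01, 6.04 and 6.04 with forskolin, and 5.92, 6.24 and 6.21 with AICAR. The forskolin arrays overlapped control, and the AICAR arrays fell on both sides of the other groups, with replicate 1 lowest of all 9 and replicates 2 and 3 highest. All values lay below the array medians. Whether this probe reads Plat RNA above background in these cells was not tested. Its small differences therefore do not show that Plat was expressed and unchanged.

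The Plat values of the 3 control arrays and of forskolin replicates 2 and 3 were identical in every deposited decimal. Such ties are common in this table: 60.8% of genes had the same value on at least 2 arrays and 5.81% on at least 5, and 376 genes (1.89%) had 1 value on all 3 control arrays. The SD of 0 that follows for Plat in control is therefore no measure of biological spread. Plau (AICAR replicates 1 and 3) and Plaur (control replicate 1 and forskolin replicate 2) each had 1 such pair.

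In limma's moderated test over all genes, with Benjamini-Hochberg adjustment, Plat did not pass an adjusted p of 0.05 in any comparison. Forskolin minus control was −0.01 (95% interval −0.17 to 0.16, adjusted p = 0.996), AICAR minus forskolin 0.10 (−0.06 to 0.27, adjusted p = 0.408) and AICAR minus control 0.09 (−0.07 to 0.26, adjusted p = 0.41). These intervals allow a rise of up to 0.27 and 0.26 on the log2 scale in the AICAR comparisons. After quantile normalization of the deposited values, AICAR minus forskolin was 0.02 and AICAR minus control turned to −0.02.

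The Plat result depended on which AICAR arrays were kept. Without AICAR replicate 1, Plat was higher with AICAR by 0.20 (SE 0.04, adjusted p = 0.0105) than with forskolin and by 0.19 (SE 0.04, adjusted p = 0.00947) than in control. Both SEs were 0.07 with all 9 arrays, and the 5 identical Plat values are all among the arrays kept. The p-values of the smaller fit thus rest in part on ties and are no sure measure of biological spread. In that fit 16.7% and 23.8% of all genes were called in these comparisons, against 5.1% and 8.72% with all 9 arrays. Without AICAR replicate 2 or 3 the differences from forskolin and control were between 0.032 and 0.057, and neither passed the test. The interquartile range of all probe values was 3.42 on AICAR replicate 1, within the 3.42 to 3.48 of the control and forskolin arrays. On AICAR replicates 2 and 3, where Plat was highest, it was narrower, at 3.35 and 3.34. What makes AICAR replicate 1 differ from replicates 2 and 3 was not tested.

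**Figure D2:**
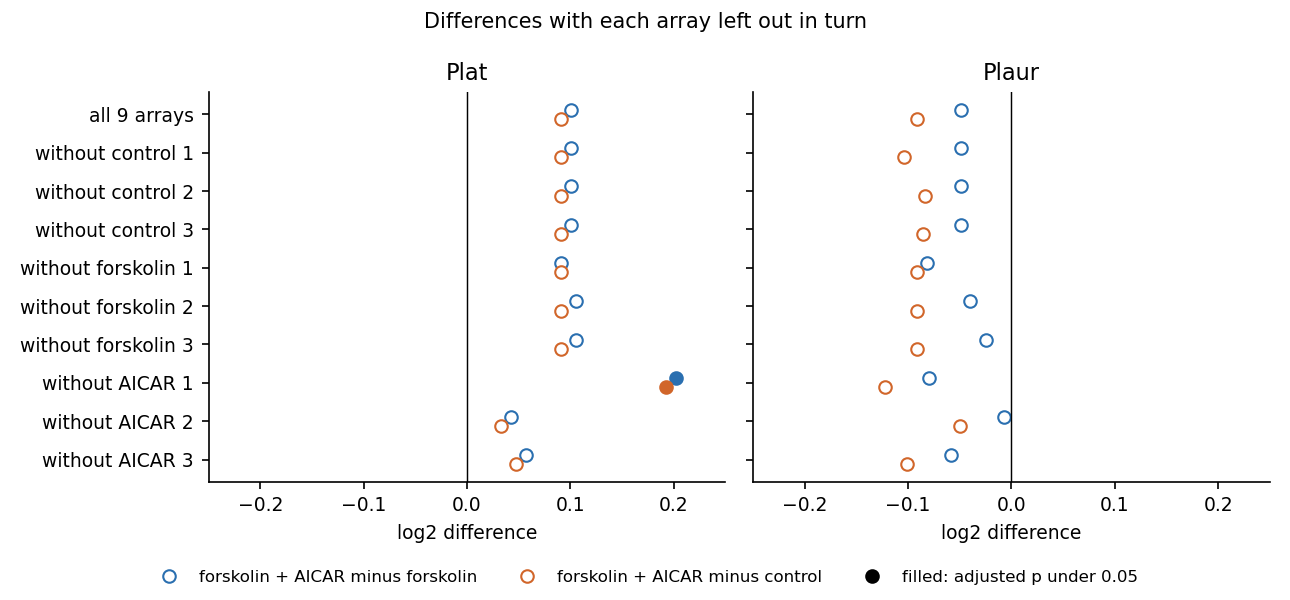
Log2 difference of AICAR arrays from forskolin and from control (x axis) for Plat and Plaur in the fit of all 9 arrays and with each array left out in turn (y axis); filled points passed an adjusted p of 0.05. The Plat differences of 0.20 and 0.19 without AICAR replicate 1 are the only filled points, and all Plaur points are open and below 0.

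Plaur, the receptor gene, gave log2 values of 8.36, 8.40 and 8.39 in control, 8.28, 8.36 and 8.39 with forskolin, and 8.36, 8.21 and 8.31 with AICAR. Forskolin overlapped both other groups, and the highest AICAR array (8.356) lay just under the lowest control array (8.359). The order of the means was control (8.38 ± 0.02), forskolin (8.34 ± 0.06) and AICAR (8.29 ± 0.07; SD, n = 3), and neighbours in that order differed by less than 0.05.

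None of the 3 Plaur differences passed the limma test. They were −0.04 for forskolin minus control (95% interval −0.15 to 0.07, adjusted p = 0.937), −0.05 for AICAR minus forskolin (−0.16 to 0.06, adjusted p = 0.538) and −0.09 for AICAR minus control (−0.20 to 0.02, adjusted p = 0.222). The lack of overlap between AICAR and control is shared by 29.5% of all genes, 14.3% in the lower direction. Without AICAR replicate 1 the Plaur difference from forskolin was −0.08 (adjusted p = 0.28) and that from control −0.12 (adjusted p = 0.103). After quantile normalization AICAR minus forskolin turned to 0.02.

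Of the 2 members that could be tested, Plat and Plaur, 0 were called in any comparison in limma with all 9 arrays, and 0 had an unadjusted p under 0.05. The share of all genes called was 0.692% for forskolin minus control, 5.1% for AICAR minus forskolin and 8.72% for AICAR minus control, so that a count of 0 of 2 is near the background. At 1.5 h the group means of Plau spanned 1.76 on the log2 scale, those of Plat 0.10 and those of Plaur 0.09. No test of Plau against the other members was made, since it was chosen for its response.

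**Figure D3:**
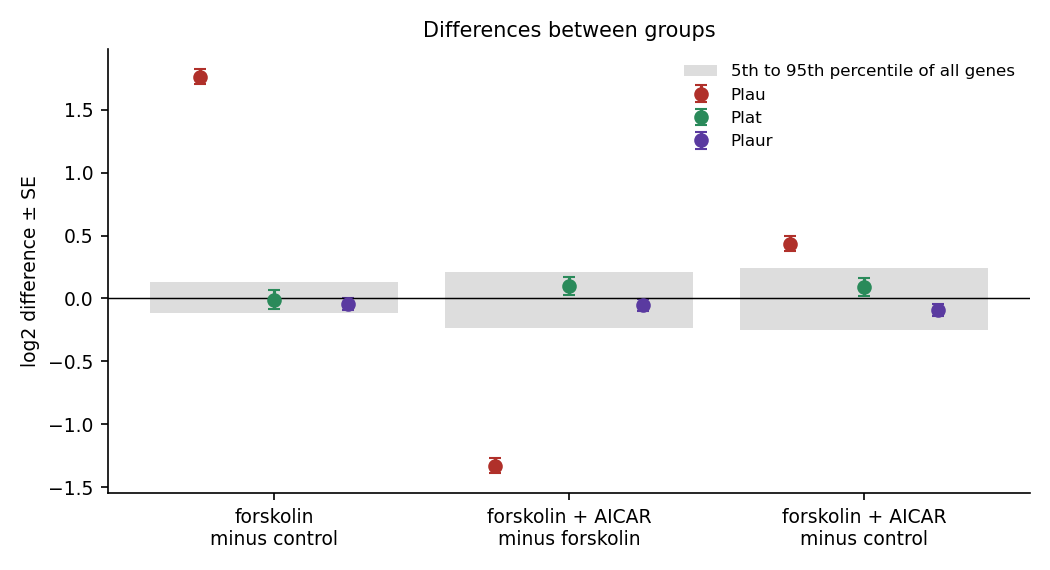
Log2 difference ± SE (y axis) of Plau, Plat and Plaur in the 3 comparisons (x axis), over the range from the 5th to the 95th percentile of all 19938 genes (grey). Plau lies at 1.76, −1.33 and 0.43, outside the grey range each time, and Plat and Plaur lie inside it.

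For Plaur the RefSeq table holds the sequence around the start site, and the 250 bases before the start are shown because AP-1 sites are a known feature of urokinase receptor promoters. The stretch is chr7:24462233-24462482 (GRCm38.p6, plus strand), with 5′ to 3′ letters in lower case and matches to the AP-1 site TGANTCA and the GC box GGGCGG, both searched on both strands, in capitals.
Plaur promoter: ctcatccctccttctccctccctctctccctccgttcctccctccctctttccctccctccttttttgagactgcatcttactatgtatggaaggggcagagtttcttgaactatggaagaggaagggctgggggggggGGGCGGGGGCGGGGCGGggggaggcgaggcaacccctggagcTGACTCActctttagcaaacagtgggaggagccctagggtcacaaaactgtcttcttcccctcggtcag

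The AP-1 match begins 69 bases before the start, and 3 GC boxes begin at 111, 105 and 100 bases before it, the last 2 sharing a base. An AP-1 match stands in the same 250-base window of 6.73% of 32544 RefSeq mouse promoters, and a GC box in 33.0%. The letters of the cAMP response element, TGACGTCA, of its short form TGACG and of the NR4A site AAAGGTCA are not in this window of Plaur. A match is a run of letters and shows no binding, and the absence of one says nothing about a factor.

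The other genes of the plasminogen system were taken from a list of 51 in 4 roles, of which 46 were measured by a probe listed for 1 gene; the others were not analysed here. With forskolin alone, limma called 0 of the 46, and 0 had an unadjusted p under 0.05. Their differences ran from −0.07 to 0.12 with a median of 0.02, against 0.00 for all genes, of which 0.692% were called. The groups did not overlap in 3 of the 46, against 14% of all genes. The control means of the list ran from 4.76 (Serpinb2) to 12.82 (S100a10). Those of Plg (5.92), A2m (6.02) and Mmp13 (5.64) lay below the array medians, and those of Anxa2 (11.75) and Lrp1 (11.57) above. The list thus mixes dim and bright probes, and a count of 0 does not show that each gene was expressed and unchanged.

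Among these, the activating proteases and their substrate, 5 measured genes, ranged from −0.03 for St14 (matriptase, a membrane protease) to 0.07 for Plg (plasminogen itself). The 14 receptors and binding proteins included the plasminogen receptor Plgrkt at 0.02 (SE 0.07), the annexin Anxa2 at −0.05 (SE 0.04) and the endocytic receptor Lrp1, which clears uPA-inhibitor complexes, at −0.04 (SE 0.05). Of 7 inhibitors, A2m, a broad protease trap, was highest at 0.12 (SE 0.09), and the urokinase inhibitor Serpinb2 stood at −0.02 (SE 0.10). The 20 targets and matrix genes reached 0.11 (SE 0.05) for Mst1r, the receptor of macrophage-stimulating protein, and the collagenase gene Mmp13 stood at 0.03 (SE 0.04). The genes of this list that are named with values, other than Itga5, were chosen after their values were seen.

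With AICAR, 1 of the 46 genes was called in each comparison, the same gene both times: Itga5, which encodes the alpha-5 subunit of the fibronectin receptor. Its log2 values were 9.59, 9.73 and 9.66 in control, 9.57, 9.63 and 9.75 with forskolin, and 9.46, 9.33 and 9.30 with AICAR. All AICAR arrays lay below all others, while control and forskolin overlapped. Itga5 fell by 0.28 from forskolin (log2 difference −0.28, SE 0.06, adjusted p = 0.0299) and was lower than control, at −0.29 (SE 0.06, adjusted p = 0.0214). Without AICAR replicate 1 the differences were −0.33 (adjusted p = 0.0118) and −0.34 (adjusted p = 0.0086). In both comparisons the call was lost with a replicate block and without control replicate 3, AICAR replicate 2 or AICAR replicate 3. The first was also lost without forskolin replicate 2 or 3 or with only the 6 arrays compared (adjusted p up to 0.108), and the second without control replicate 2 (adjusted p up to 0.0828).

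One called gene of 46 is 2.17%, against 5.1% of all genes for AICAR minus forskolin and 8.72% for AICAR minus control. The medians of the 46 differences were 0.06 and 0.08, against 0.02 for all genes in both. The groups did not overlap in 8 and 11 of the 46, against 23.6% and 29.5% of all genes. Thbd, which encodes thrombomodulin, came nearest to a call against forskolin at 0.24 (SE 0.06, adjusted p = 0.0532), and Mst1, which encodes a plasminogen-like growth factor, against control at 0.24 (SE 0.07, adjusted p = 0.0518). The metalloproteinase inhibitors Timp1 (−0.17, SE 0.07, adjusted p = 0.174) and Timp3 (−0.09, SE 0.04, adjusted p = 0.203) did not pass against forskolin, nor did the serpin Serpine3 (0.15, SE 0.06, adjusted p = 0.147).

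Several of these genes passed the test under other settings. Thbd was called against forskolin, and Mst1 against control, with the filter at a mean log2 value of 5 and with median centring. Without AICAR replicate 1, Thbd (0.27, adjusted p = 0.032), Mst1 (0.25, adjusted p = 0.0295), Timp1 (−0.25, adjusted p = 0.0288) and Serpine3 (0.22, adjusted p = 0.0121) were called against forskolin. Against control, Mst1 was called in that fit at 0.30 (adjusted p = 0.0126), Serpine3 at 0.24 (adjusted p = 0.00645) and Timp1 at −0.22 (adjusted p = 0.032), and Thbd was not (0.20, adjusted p = 0.063). Timp3 was called in neither, at −0.10 in both (adjusted p = 0.126 and 0.103). In all the count rose to 10 of 46 in each comparison, 8 higher and 2 lower against forskolin and 7 higher and 3 lower against control. That is 21.7% of the list, beside 16.7% and 23.8% of all genes in the same fit.

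**Figure D4:**
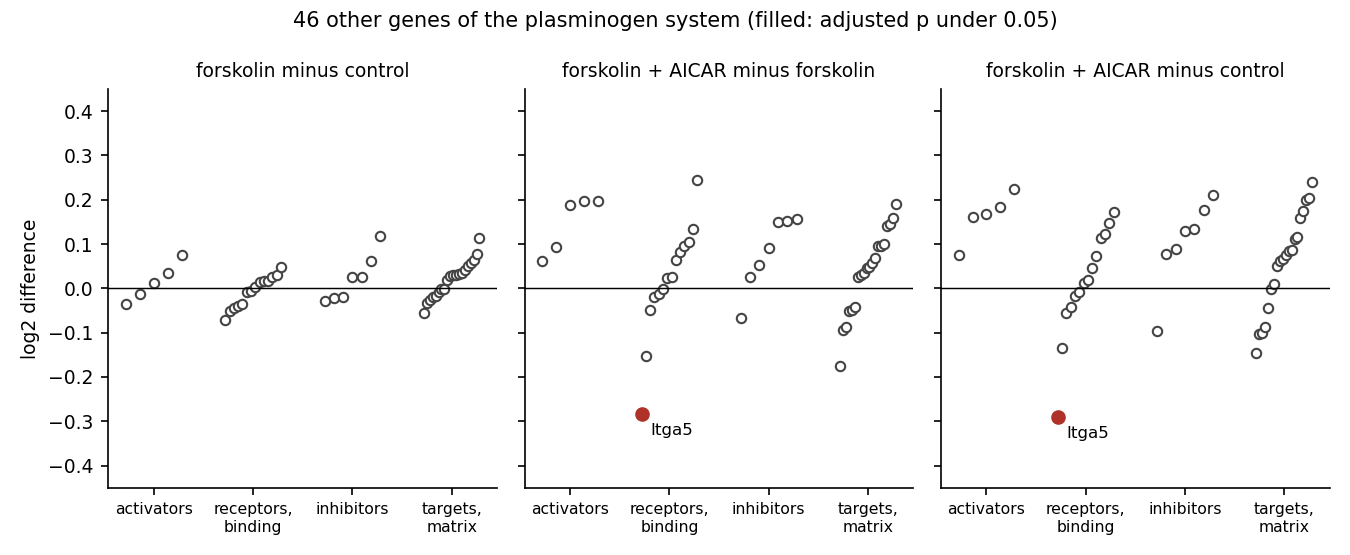
Log2 differences (y axis) of the 46 measured genes of the plasminogen system, by role (x axis) and comparison, each point 1 gene; filled points passed an adjusted p of 0.05 in the fit of all 9 arrays. With forskolin the points stay between −0.07 and 0.12 and none is filled, and Itga5 is the filled point in both AICAR comparisons.

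To place Plau among other genes, each gene's values were set to 0 at its own control mean and compared with Plau over the 9 arrays. The 5 nearest genes, by root-mean-square difference in log2 units, were Star (0.36), Klf4 (0.41), Slc25a25 (0.43), Fosb (0.47) and Plk3 (0.48), where a gene that stayed at its control mean would lie at 1.05. Star, the mitochondrial cholesterol carrier, rose slightly further than Plau with forskolin by group mean, and fell further with AICAR. It stood 1.89 above control with forskolin (SE 0.06), and with AICAR it was 0.16 below control (log2 difference −0.16), where Plau was 0.43 above. Klf4, a transcription factor gene, and Plk3, a polo-like kinase gene, peaked lower and returned part of the way: 1.08 with forskolin and 0.29 with AICAR for Klf4, and 0.97 and 0.24 for Plk3, each relative to control. Slc25a25, which encodes a mitochondrial ATP-Mg carrier, went from 1.03 to 0.58, and the AP-1 gene Fosb from 1.15 to 0.97. Without AICAR replicate 1, the AICAR levels relative to control were −0.19 for Star, 0.30 for Klf4, 0.58 for Slc25a25, 0.99 for Fosb and 0.22 for Plk3. These genes were chosen for their likeness to Plau over the same arrays, so their levels carry no test here.

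**Figure D5:**
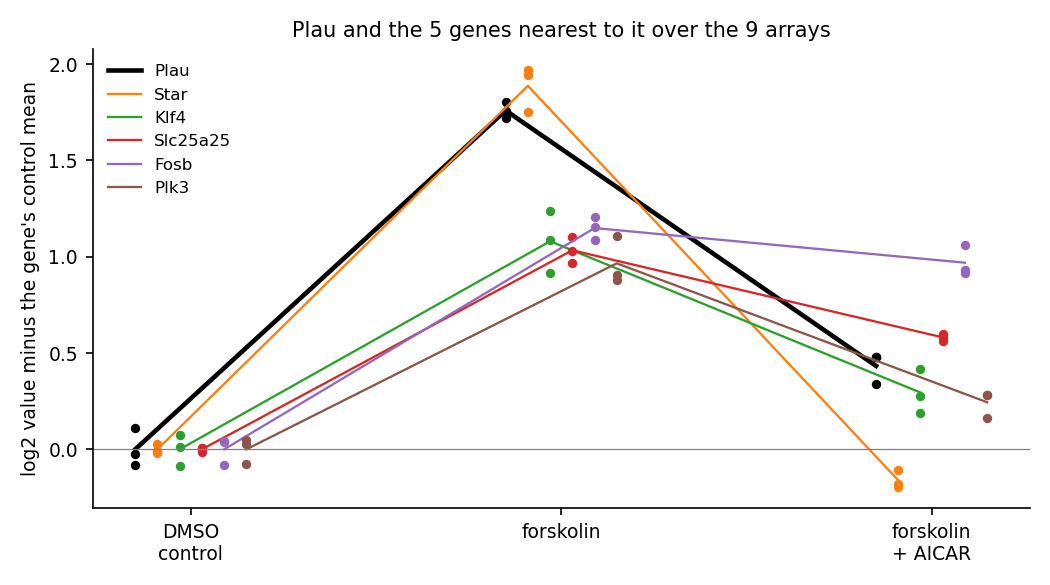
Log2 value minus the gene's own control mean (y axis) in the 3 groups (x axis) for Plau and the 5 genes nearest to it; points are arrays and lines join group means. Plau and Star reach 1.76 and 1.89 with forskolin, and with AICAR Plau stays at 0.43 while Star lies at −0.16.

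The RefSeq table holds promoters for 4 of these 5 genes (Klf4, Fosb and Plk3 with 1 start each, Slc25a25 with 3), and for none of Plau, Plat and Star. The short cAMP element TGACG or its reverse complement CGTCA, found in the 250-base window of 17.8% of RefSeq promoters, is in the window of each of the 4, for Slc25a25 at 1 of its 3 starts. That share counts promoters, and the 4 genes were picked from these arrays, so the matches are no test. Whether the element plays a part in the forskolin response of Plau or of these genes was not tested. The windows are shown because these genes shared the forskolin peak with Plau; each holds 10 bases on either side of the match, which is in capitals, on the gene's own strand (the minus strand of GRCm38.p6 in all 4).
Klf4, chr4:55532693-55532717: gcctggctggCGTCAcggcctggcc
Slc25a25, chr2:32424202-32424226: ctgcaagcagTGACGtcagtcctga
Fosb, chr7:19310091-19310115: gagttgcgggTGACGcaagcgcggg
Plk3, chr4:117134081-117134105: atctttcaggTGACGtaaggcggag

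The Slc25a25 window holds the full palindrome TGACGTCA, which 1.55% of RefSeq promoters hold in their 250 bases. In the other 3 genes the match is the short form alone. Plk3 has a second short match nearer to its start, not printed. AP-1 and NR4A letters were in none of these 250-base windows. A GC box, which 33.0% of RefSeq promoters hold in their 250 bases, was also present for all 4 genes, for Slc25a25 not at every start.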

How the data were processed

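RNA from 9 samples was hybridised to Affymetrix whole-transcript arrays. The authors deposited log2 values per probe set, credited to RMA and Partek per the submitters' processing notes; versions, settings and genome build are not given in the sources used here. Of 35557 probes, 21789 carried 1 gene symbol, 1621 several and 12147 none listed. The brightest single-symbol probe per gene, by its mean over the arrays, left 19938 genes (999 had several probes), with no filter on dim probes. A linear model with 1 mean per group was fitted to the 9 arrays together (R 4.3.3, limma 3.58.1). It used the two-sided moderated test and Benjamini-Hochberg adjustment over all genes, and a gene was called at an adjusted p under 0.05. The fit was checked on simulated data with independent normal noise. Such data lack the ties and the leading component of these arrays, so the check cannot show how either affects the calls. Serpine2 is listed for no single-symbol probe in the annotation used. The number of arrays limits the precision.

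Members, gene lists, motifs and tests were chosen with earlier results of these data known. Named in full were the members, every called gene of the plasminogen list, and the 5 genes nearest to any member whose group means spanned at least 1.5-fold (Plau), leaving out unnamed transcripts, olfactory and vomeronasal receptors and small RNA genes. Alternatives were a replicate block, a filter at a mean log2 value of 5, quantile normalization, median centring, a trended robust prior, array weights, the mean of all probes, only the 6 arrays compared, and each array left out. Promoter sequences are from RefSeq (GRCm38.p6). Figures were drawn with matplotlib 3.10.9 in Python 3.11.15, and tables were handled with numpy 2.4.6 and pandas 2.3.3.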

Additional observations from a re-analysis of the deposited data

How the results depend on the processing

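As a description only, since it was picked on these arrays, Plau kept the direction of its 3 differences under all 17 alternatives. They lay between 1.71 and 1.81 for forskolin minus control, −1.37 and −1.27 for AICAR minus forskolin, and 0.34 and 0.51 for AICAR minus control, the last moving by more than the within-group SD with array weights (0.34). Leaving out 1 array gave 1.72 to 1.81, −1.35 to −1.28 and 0.39 to 0.49.

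With array weights Plat passed the test against forskolin (0.18, adjusted p = 0.0195) and control (0.17, adjusted p = 0.0282), and Plaur against control (−0.15, adjusted p = 0.0205), in fits that called 28.7% and 33.2% of all genes. Leaving out 1 array gave Plat 0.042 to 0.20 against forskolin (adjusted p 0.0105 to 0.773) and 0.032 to 0.19 against control (0.00947 to 0.806), and Plaur −0.12 to −0.05 against control (0.103 to 0.513). Under the remaining alternatives, leaving out AICAR replicate 1 apart (Plat called in both AICAR comparisons), neither gene was called.

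The count of all genes called, 138 for forskolin minus control, was 83 with a replicate block, 436 with array weights and 76 to 144 with 1 array left out. For AICAR minus forskolin it was 1017, against 583 with the block, 5729 with weights, 496 with only the 6 arrays compared and 487 to 3324 with 1 array left out. For AICAR minus control it was 1739, against 874, 6619, 758 and 660 to 4741 in that order. Of the 1017 genes 195 were higher, against 389 of 1155 after quantile normalization, 1677 of 3324 without AICAR replicate 1 and 3075 of 5729 with array weights; higher calls outnumbered lower ones in the last 2.

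Of the 46 other plasminogen genes, 1 was called against forskolin, but 0 with the replicate block or only the 6 arrays compared, 2 with the filter or median centring, 15 with array weights, and 0 to 10 with 1 array left out. Against control 1 was called, but 0 with the block, 2 with the filter, quantile normalization or median centring, 17 with weights, and 0 to 10 with 1 array left out. With forskolin alone 0 were called in limma under any alternative. The cause of these shifts was not tested. Deviations of same-numbered arrays from their group means correlated at 0.24, 0.01 and 0.33 between control and forskolin (replicates 1, 2 and 3). For pairs with an AICAR array the correlations ran from −0.41 to 0.08. The nearest array of another group had the same number for 0 of 9 arrays. Whether the numbers mark paired cultures was not tested, and the block changed no call of a member. Alternatives for Serpine2 were not run because it was not measured here. Only 3 arrays a group limit how small a change can be called.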
